A study of Mus musculus with 15 samples.

Results

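Neat1 is a long noncoding RNA of the nucleus, and its level in mouse brain was compared here between mutant and wild-type animals together with 3 protein partners, Sfpq, Nono and Pspc1. Members were all array probes whose only gene symbol in the platform annotation was one of these 4 names. A probe was kept if at least 4 arrays per dye orientation gave it a value. That left 3 genes with 1 probe each, Neat1, Nono and Sfpq, of 4372 genes with a tested probe in the whole table. Neat1 leads because it was among the 52 probes past the threshold in earlier results of these data, so its difference between the dye orientations is described below and not tested. Nono, Sfpq and Pspc1 were taken for their role in the same structure.

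The series measured RNA from brains of homozygous O377 mice, a line with an altered allele of the lens crystallin gene Crybb2. The comparison group was wild-type mice, and the series title concerns the expression of Crybb2 in the brain. Each of 15 arrays carried both RNAs, labelled with different dyes. The first channel was a single pool of 4 wild-type brains and the second was RNA of 5 numbered O377 brains, and the labels do not say whether those 5 were mixed or which of them is on an array. The mutant carried Cy5 on arrays 1, 2, 5, 6, 9, 10 and 13 and Cy3 on the other 8, with arrays numbered in accession order. Strain background, age and sex are not given in the sources used here. Nothing says that the arrays of an orientation come from separate animals, so errors and p-values reflect how arrays vary, which can be technical variation alone, and the single pool leaves out the spread among wild-type mice. In RNA of whole brains, fewer cells of a type and less RNA per cell cannot be told apart.

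Paraspeckles are bodies in the cell nucleus built on Neat1, which serves as their scaffold. Transcription of Neat1 and its binding by Sfpq and Nono, RNA-binding proteins that pair with each other, are needed to form them, and Pspc1, a relative of both, is a further component. The bodies retain certain edited or repeat-bearing RNAs and sequester proteins, and Neat1 is known to respond to cellular stress and to neuronal activity. Neat1 lies beside Malat1, another abundant nuclear noncoding RNA.

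Values are log ratios of the 2 channels, taken as log2, and the sources used here do not say whether the numerator is the mutant or the Cy5 channel. Every probe was therefore described by a pair of components. The dye-switching component is (mean with the mutant in Cy5 minus mean with the mutant in Cy3) divided by 2, and the shared component is the average of those means. If the ratios are Cy5 over Cy3, the first is the mutant minus wild-type difference and the second a dye effect. With the mutant as numerator these roles are exchanged. Neither reading is assumed below, and a sign is given only as the side of 0.

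Across the table, 20205 probes had 7843 to 10515 values per array, and 8058 probes were tested. The interquartile range of an array was 0.386 to 0.892, widest on array 10, so that array and array 9 were also left out together. In limma with Benjamini-Hochberg adjustment over all tested probes, 0.645% of probes (52 of 8058) had an adjusted p under 0.05 in the dye-switching component. In the shared component 0% (0 of 8058) did, where 9.49% had an unadjusted p under 0.05 and robust regression called 107. Ratios carry no level, so the brain label could be checked only by which marker probes were measured. Of marker genes with a probe, 7 of 10 neuronal, 3 of 8 astrocyte, 2 of 7 oligodendrocyte, 2 of 6 microglial, 4 of 6 endothelial or pericyte, 1 of 2 red cell and 0 of 2 choroid plexus genes were tested, beside 4372 of 9669 genes in all. These counts do not test the label.

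Only some spots for these genes gave values. Neat1 had 2 probes on the platform, of which probe 2998 had a value on 15 of 15 arrays and probe 2240 on 0. Nono likewise had 1 probe with values on 14 arrays (missing on array 15) and 1 with none, and Sfpq had 1 probe, with values on all 15. Both Pspc1 probes had 0 values, so nothing is reported on that gene. In all 4 of 7 member probes were empty (57.1%), beside 19.9% of all probes on the array. A spot removed for low signal cannot be told from one removed for another fault, since scanner intensities were not analysed here. The members kept lay far inside the limit of 4 arrays per orientation, at 7 or 8, and those outside it were all at 0, so the filter divided them without a close case.

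Neat1 had opposite signs in the dye orientations. Arrays with the mutant in Cy5 gave log2 ratios of -0.35 on array 1, -0.38 on array 2, -0.84 on array 5, -0.65 on array 6, -0.74 on array 9, -0.06 on array 10 and 0.06 on array 13. With the mutant in Cy3 it was 0.31 on array 3, 0.45 on array 4, 0.63 on array 7, 0.91 on array 8, 0.46 on array 11, 0.24 on array 12, 0.30 on array 14 and 0.48 on array 15. The orientations did not overlap: the highest value with the mutant in Cy5, on array 13, lay below the lowest with the mutant in Cy3, on array 12. Arrays 5, 6 and 9 at the low end and arrays 7 and 8 at the high end were farthest from 0, and arrays 10 and 13 were close to it. Means were -0.42 ± 0.34 (SD, n = 7 arrays) and 0.47 ± 0.22 (SD, n = 8 arrays).

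The Neat1 difference had nearly the same size in both orientations. Its dye-switching component was -0.45 ± 0.08 (SE, n = 15 arrays), a 1.36-fold ratio, with a 95% confidence interval from -0.61 to -0.29. Its sign, turned with the dyes, was the same on 14 of 15 arrays, array 13 being the exception. In size it was 164th of 8058 tested probes, where the median size was 0.08. It was selected on this contrast, so these figures, beside a background of 0.31% of probes called on the negative side and 0.496% not overlapping on that side, describe it and test nothing. The shared component was not used to choose Neat1 and could be tested: it was 0.02 ± 0.08 (SE), interval -0.13 to 0.18, limma adjusted p = 0.929.

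**Figure D1:**
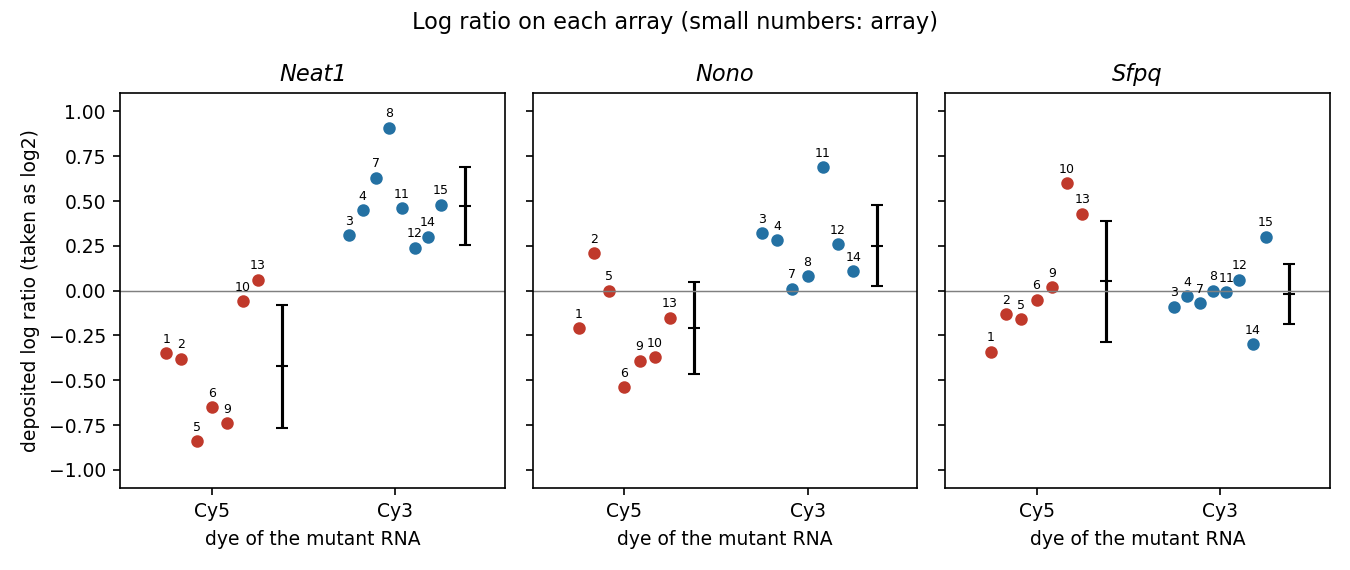
Deposited log ratio (vertical axis, taken as log2) of Neat1, Nono and Sfpq on each array, by dye orientation; each point is an array with its number, and the black mark with its bar is the mean ± SD of an orientation. Neat1 values of the orientations do not overlap (highest 0.06 against lowest 0.24), those of Nono overlap in part, and those of Sfpq lie over one another.

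The place of Neat1 within each array restates the same values on a scale that does not depend on the width of the array. On Cy5 arrays of the mutant it was at the 4.75th percentile of all values on array 9, the 5.63rd on array 5 and the 8.76th on array 6, and at the 56.1st on array 13. On Cy3 arrays of the mutant its percentile ran from 79.6 on array 12 to 97.1 on array 8. On array 10, the array of widest spread, Neat1 was at the 46.3rd percentile. Neat1 was among the less variable probes within an orientation, with a pooled SD of 0.28 beside a median of 0.34 over tested probes. Choosing a probe past a threshold favours a small SD, so this value only describes Neat1.

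Arrays next to each other in accession order held both dye orientations, so the component could also be taken within runs of 4 arrays. For Neat1 it was -0.37 in arrays 1 to 4, -0.76 in arrays 5 to 8, -0.37 in arrays 9 to 12 and -0.17 in arrays 13 to 15. All 4 runs lay on the negative side, arrays 5 to 8 farthest from 0 and arrays 13 to 15 nearest, with the same value in the other two runs. The labels do not say what a run stands for. Accession numbers have a gap between arrays 3 and 4, inside the first run. With 1 value per run the component was -0.42 ± 0.11 (SE, n = 4 runs). Neat1 was not among the 2 probes past the threshold in that fit (limma adjusted p = 0.677). Since Neat1 was chosen on this contrast, these figures describe it and test nothing. The shared component of Neat1 was 0.01, 0.01, -0.03 and 0.22 in the same order.

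Nono, the partner protein gene, lay on the same side as Neat1 but did not pass the test. Log2 ratios with the mutant in Cy5 were -0.21 on array 1, 0.21 on array 2, 0.00 on array 5, -0.54 on array 6, -0.39 on array 9, -0.37 on array 10 and -0.15 on array 13. Arrays with the mutant in Cy3 gave 0.32 on array 3, 0.28 on array 4, 0.01 on array 7, 0.08 on array 8, 0.69 on array 11, 0.26 on array 12 and 0.11 on array 14. Array 2 was the one Cy5 value clearly above 0, and it lay above the lowest values of the other orientation, so the orientations overlapped. The means were -0.21 ± 0.26 (SD, n = 7) and 0.25 ± 0.22 (SD, n = 7).

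The dye-switching component of Nono was -0.23 ± 0.07 (SE, n = 14 arrays), 1.17-fold, with an interval from -0.38 to -0.08. Its unadjusted p of 0.00505 gave a limma adjusted p of 0.226 over all tested probes, of which 9.57% had an unadjusted p under 0.05. The sign matched on 13 of 14 arrays. Within runs it was -0.15, -0.16, -0.43 and -0.13, largest in arrays 9 to 12, where Neat1 was not at its largest. The shared component was 0.02 ± 0.07 (SE), interval -0.13 to 0.17, adjusted p = 0.935.

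Sfpq, which encodes a splicing factor that binds Neat1, was close to 0 in both orientations. Arrays with the mutant in Cy5 gave log2 ratios of -0.34 on array 1, -0.13 on array 2, -0.16 on array 5, -0.05 on array 6, 0.02 on array 9, 0.60 on array 10 and 0.43 on array 13. The other orientation ran from -0.30 on array 14 to 0.30 on array 15, with a median of -0.02. Arrays 10 and 13, the pair where Neat1 was highest among its Cy5 values, were also the highest for Sfpq. Means were 0.05 ± 0.34 (SD, n = 7) and -0.02 ± 0.17 (SD, n = 8).

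Neither component of Sfpq passed. The dye-switching component was 0.04 ± 0.07 (SE, n = 15), interval -0.11 to 0.19, adjusted p = 0.907, and the shared component 0.02 ± 0.07 (SE), interval -0.13 to 0.17, adjusted p = 0.951. The dye-switching interval holds differences of at most 0.19 in size on the log2 scale. Within runs the dye-switching component was -0.08, -0.04, 0.14 and 0.21, so its side was not the same throughout, and it was -0.02 without arrays 9 and 10.

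**Figure D2:**
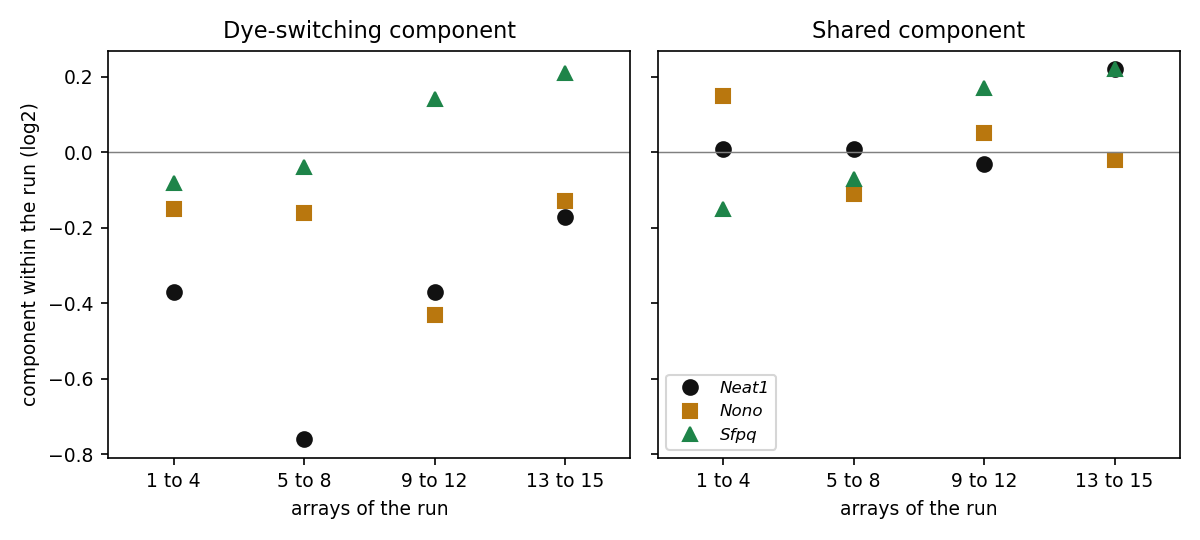
Dye-switching (left) and shared (right) component in log2 of Neat1, Nono and Sfpq within each run of arrays in accession order; each point is 1 gene in 1 run. Neat1 and Nono lie below 0 in all 4 runs on the left, Neat1 between -0.76 and -0.17, and Sfpq lies on both sides.

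**Figure D3:**
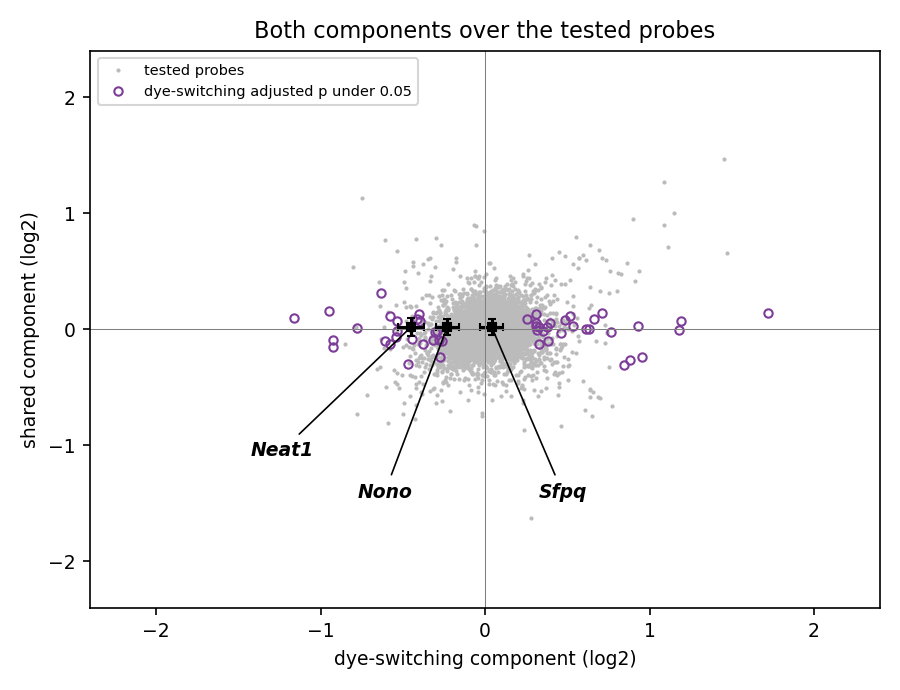
Shared against dye-switching component, both in log2, for the 8058 tested probes within the plotted range of each axis; open circles are the 52 probes with a dye-switching adjusted p under 0.05, and squares with SE bars are Neat1, Nono and Sfpq. Neat1 at -0.45 and Nono at -0.23 lie left of centre, and all 3 have a shared component of 0.02.

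Other genes of paraspeckles did not pass as single probes. The list held 36 genes for proteins found in paraspeckles or related to those, 22 of them on the array, and 13 with a tested probe. Of 14 probes 0 passed in either component, beside 0.645% and 0% of all tested probes, so the count says nothing particular about the list. The median dye-switching component was 0.08 beside 0.01 over all tested probes. In that component 2 probes had an unadjusted p under 0.05, beside 9.57% of all tested probes. Ewsr1, of the FET family of RNA-binding proteins, had the component largest in size at -0.40 ± 0.13 (SE), adjusted p = 0.282. In robust regression, which called 204 probes beside 52 in the main fit, Ewsr1 was at -0.51, adjusted p = 0.00627. Smarca4, a chromatin remodelling ATPase, was next in size, on the other side, at 0.39 ± 0.13 (SE), adjusted p = 0.3. Rbm14, which paraspeckles need to form, was at 0.18 ± 0.15 (SE) on 8 arrays, and Tardbp, which binds Neat1, at 0.19 ± 0.12.

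A list of 5 genes for RNA editing and paraspeckle client RNAs gave 3 tested probes, all of them of editing enzymes. Of these 0 passed, beside 0.645% of all tested probes in the dye-switching component and 0% in the shared one. No client RNA on the list had a tested probe. Adar, an enzyme that edits adenosines in double-stranded RNA, was at 0.76 ± 0.25 (SE) on a probe with 8 values (adjusted p = 0.351) and at -0.03 ± 0.06 on a probe with 15. The first passed in robust regression, at 0.82 (adjusted p = 0.0377), where 204 probes passed beside 52 in the main fit. Adarb1, a second editing enzyme, was at 0.08 ± 0.16 (SE).

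No other listed noncoding RNA passed. Of 26 listed genes 11 had a tested probe, 15 probes in all, of which 0 passed in either component. Over all tested probes 0.645% and 0% passed, so the count says nothing particular about noncoding RNAs. The dye-switching components had a median of 0.02 and values from -0.19 to 0.73. Malat1, which lies next to Neat1, ran from -0.37 to 0.59 with the mutant in Cy5 (median -0.03) and from -0.35 to 0.42 with the mutant in Cy3 (median -0.02). Its dye-switching component was 0.02 ± 0.07 (SE), interval -0.14 to 0.18, adjusted p = 0.965, and it was -0.01 with arrays scaled to equal width. Gas5, host of many small nucleolar RNAs, was at 0.29 ± 0.08 (SE), adjusted p = 0.191, on 1 probe and at -0.06 ± 0.11 on another. Meg3, an imprinted noncoding RNA, was at 0.73 ± 0.24 (SE) on a probe with 10 values, adjusted p = 0.324, and between -0.03 and 0.06 on 3 probes with 15 values.

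**Figure D4:**
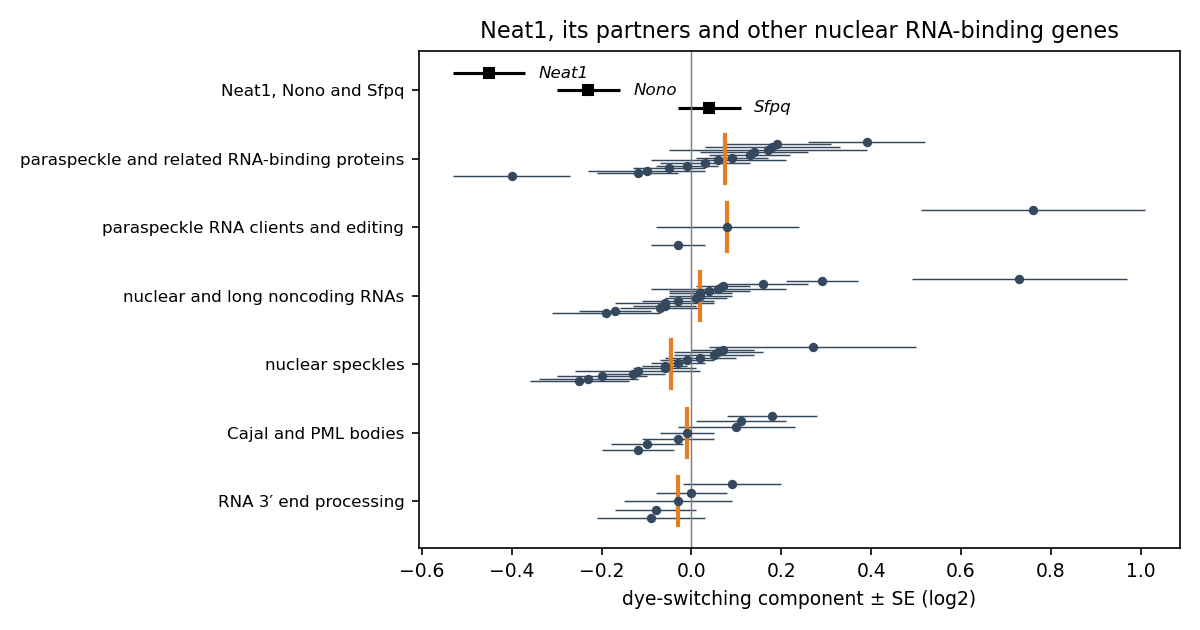
Dye-switching component ± SE (log2, horizontal axis) of Neat1, Nono and Sfpq (squares) and of every tested probe in the 6 lists of genes for nuclear bodies, noncoding RNAs, RNA editing and RNA processing (points). Orange bars are list medians. The list medians lie between -0.04 and 0.08. None of the listed probes had an adjusted p under 0.05, beside 0.645% of all tested probes.

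Probes for other bodies of the nucleus lay near 0. Of 14 nuclear speckle probes, 7 probes of Cajal and PML bodies and 5 probes of RNA 3′ end processing, 0 passed in either component, beside 0.645% and 0% of all tested probes, so the count says nothing particular about these lists. Their dye-switching medians were -0.04, -0.01 and -0.03. Sf3b2, a subunit of the spliceosome, was at 0.27 ± 0.23 (SE), and at 0.07 without array 11, and Acin1, of the exon junction machinery, at -0.25 ± 0.11. Gemin4 of the SMN complex was at 0.18 (0.11 without array 9), Nolc1 of nucleoli and Cajal bodies at -0.12, and the polyadenylation genes Pabpn1 and Fip1l1 were at 0.09 and -0.09. Their adjusted p was 0.471 or larger.

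The 7 lists of brain cell type markers had 22 tested probes, with 0 for choroid plexus. These probes held 1 call in the dye-switching component and 0 in the shared one, beside 0.645% and 0% of all tested probes. Their medians were -0.02 and -0.01. The call was Thy1, a neuronal surface protein, at -0.53 ± 0.11 (SE), adjusted p = 0.0276, on the side of Neat1, and it was lost with 1 value per run (-0.51, adjusted p = 0.755), without arrays 9 and 10 (-0.43, adjusted p = 0.102) and when a single array, 1, 2, 3, 4, 9, 10, 11 or 12, was dropped, where its adjusted p was 0.0518 to 0.0649. The other 6 neuronal probes lay between -0.04 and 0.09. Astrocyte probes ran from -0.15 for S100b to 0.46 for Glul (0.30 without array 9), whose second probe was at -0.01. Mbp of myelin was at -0.22 ± 0.09 (SE), adjusted p = 0.419, on 1 probe and at -0.03 ± 0.08 (SE), adjusted p = 0.941, on another, and Olig1 at -0.04. Endothelial and pericyte probes ran from -0.36 for Pdgfrb (0.03 without array 13) to 0.21 for Acta2 (adjusted p = 0.0756, and 0.0181 in robust regression). Robust regression called 204 probes, beside 52 in the main fit. C1qb and Tyrobp of microglia were at -0.05 and 0.00, and the red cell gene Alas2 was at -0.01. The part of cell composition in the Neat1 values was not tested.

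None of the tested genes around Neat1 in the GRCm38.p6 reference annotation passed. Of the 20 nearest on each side, 21 of 40 had a probe and 12 a tested one. Of those 12 probes 0 had an adjusted p under 0.05 in either component, beside 0.645% and 0% of all tested probes. The count therefore says nothing particular about the neighbours. An unadjusted p under 0.05 was reached by 2 probes in each component, beside 9.57% and 9.49% of all tested probes. The dye-switching values had a median of -0.01, 7 on the negative and 5 on the positive side. The 4 nearest tested genes on the Malat1 side were Malat1, Ehbp1l1 (0.12), Pcnx3 (-0.11, and -0.02 without array 5) and Rela (0.08), a subunit of NF-kappaB. On the other side were Slc25a45 (-0.09), Cdc42ep2 (-0.09), the DNA polymerase subunit gene Pola2 (-0.01) and the calpain gene Capn1 (0.43 ± 0.17 on 9 arrays, adjusted p = 0.461, and 0.28 without array 7). Mrpl49, a mitochondrial ribosomal protein gene picked out after its values were seen, was the 1 neighbour whose orientations did not overlap, at -0.18 ± 0.06 (SE), adjusted p = 0.279, beside 0.906% of all tested probes on either side.

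Across arrays, the genes most like Neat1 were found by Pearson's r over at least 12 arrays with both values, among 4190 other probes. The values of an array share its hybridisation and its dye orientation, and since the Neat1 orientations do not overlap, r includes that split. These are descriptions with no test. The highest r was that of Scg5, a neuroendocrine chaperone, at 0.90 over 15 arrays, followed by the nucleotidase Nt5c2 (0.88), the complement-related protease gene C1rl (0.87), Ccdc22 of an endosomal sorting complex (0.84) and the tetraspanin Tspan17 (0.83). Scg5 ran from -1.32 to -0.31 with the mutant in Cy5 and from 0.51 to 1.53 with the mutant in Cy3.

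The lowest r belonged to Dclk1, a microtubule-binding kinase, at -0.93 over 13 arrays, with values from -0.19 to 1.28 and from -1.22 to -0.13 in the same order of orientations. Atp5g2 of ATP synthase (-0.87), the protease Capn3 (-0.83), the calcium-binding S100a5 (-0.82 over 12 arrays) and the stress-response factor Xbp1 (-0.80) came next. In Spearman's rho Scg5 was at 0.90 and Dclk1 at -0.93, whereas Capn3 and Xbp1 were at -0.66 and -0.65. Nono had an r of 0.58 with Neat1 over 14 arrays, with 151 probes higher, and Sfpq an r of 0.14 over 15 arrays.

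With orientation means taken out, other genes came first. The highest r was then that of a probe of Rtn4, which encodes the neurite growth inhibitor Nogo, at 0.87. It was followed by Lamtor2 of the lysosomal Ragulator complex (0.85), the sorting nexin Snx10 (0.81), the recombination factor Rad51ap1 (0.81 over 14 arrays) and Uap1l1 (0.80). Another tested probe of Rtn4 was not among these 5. None of these 5 passed in the dye-switching component, where the smallest adjusted p was 0.532. Nono had an r of -0.09 and Sfpq of 0.54 in that form, against a median of 0.02. Dclk1 kept an r of -0.73 and Scg5 of 0.54, while Capn3 was at 0.06. With the mutant in Cy5, Neat1 was highest on arrays 10 and 13. Rtn4 (0.60 and 0.55), Snx10 (0.24 and 0.17), Rad51ap1 (0.87 and 0.43) and Uap1l1 (0.55 and 0.59) were highest there too. Lamtor2 was at 0.38 and 0.35 on these arrays and at 0.39 on array 1. Array 10 had the widest spread, and r without arrays 10 and 13 was not taken.

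**Figure D5:**
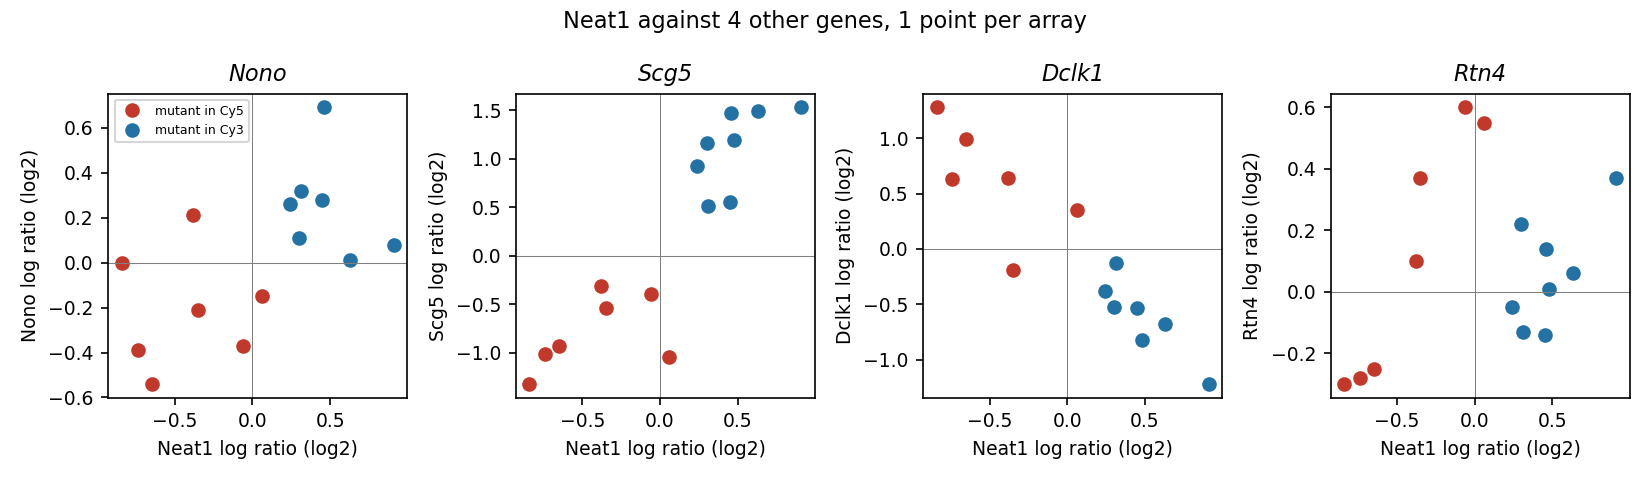
Log2 ratio of Nono, Scg5, Dclk1 and Rtn4 (vertical axes) against that of Neat1 (horizontal axes), 1 point per array, coloured by dye orientation. Scg5 follows Neat1 (r = 0.90) and Dclk1 runs opposite to it (r = -0.93), and Nono follows in part (0.58). For Rtn4 r was 0.87 with orientation means taken out, taken over the arrays of both orientations together and not within each.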

How the data were processed

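The table deposited by the authors gives each probe 1 log ratio on an array, read here as log2. Its base, its direction, the scanner steps, spot filter and normalization are not given in the sources used here. Array medians were -0.00618 to 0.0165, so columns had been centred. The base was taken as 2 because values reached 12.33 in size. All 15 arrays were used as deposited, and 0 columns were left out. Probes were named through the platform annotation, with gene identifiers checked against the GRCm38.p6 reference. Of 20205 probes 11723 had 1 symbol, 806 several and 7676 none. No sequence is printed.

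Probes with values on at least 4 arrays of each orientation were fitted in limma 3.58.1 (R 4.3.3) with an intercept (shared) and a dye term (dye-switching), eBayes, and Benjamini-Hochberg adjustment over all 8058, threshold 0.05. The fit was tested on simulated data. The number of arrays limits the precision, with a median standard error of 0.0897. Members, lists and alternatives were chosen with earlier results of these data known. Listed genes were named if past the threshold (up to 4), otherwise the 2 largest in size. Of neighbours the 4 nearest on each side were named, and of similar genes 5 per ranking. Rbm14, Tardbp and Mrpl49 are outside this rule, and their values had been seen when they were picked. Alternatives were other centring, scaling, filters, weights, variance models and regression, averaged probes, runs of arrays, and arrays left out. Figures used matplotlib 3.10.9.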

Additional observations from a re-analysis of the deposited data

Results flagged for a closer look

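By orientation, values of Neat1, Nono, Sfpq and the genes named by rule from lists and neighbours were checked for 1 array far from the rest. The genes named for their likeness to Neat1, and Rbm14, Tardbp and Mrpl49, were not checked. Of 66 sets of values 8 held such an array, where chance gives about 1 in 20. None was a set of Neat1, Nono or Sfpq. Listed genes were mostly named for a component large in size, which can favour a set with 1 extreme array. The share of 1 in 20 is therefore not a matched expectation for them. On Cy3 arrays of the mutant, Sf3b2 was at -2.41 on array 11 (next -0.424), Mbp at 0.761 on array 4 (next 0.294) and Slc25a45 at 0.661 on array 4 (next 0.106). On Cy5 arrays of the mutant, Glul was at 1.81 on array 9 (next 0.435) and Cdc42ep2 at 0.586 on array 5 (next -0.0838). Array 13 held S100b at 0.392 (next -0.0952), Pdgfrb at -3.82 (next -0.528) and Pola2 at -1.8 (next -0.0358).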

How the results depend on the processing

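Neat1 stayed between -0.50 and -0.42 in the dye-switching component over 13 alternatives and between -0.49 (without array 13) and -0.41 (without array 5) when arrays were left out in turn. Nono lay between -0.23 and -0.19 over the 13 alternatives (adjusted p 0.0664 to 0.8) and between -0.26 and -0.19 with arrays left out in turn. The count of 52 probes rose to 204 with robust regression and fell to 2 with 1 value per run, which leaves 4 values a probe, and was 36 (without array 11) to 48 (without array 1) with arrays left out. The shared count was 107 in robust regression and 0 in every other alternative run. The cause was not tested. Signs near 0 turned as follows. With array weights Neat1 (shared) and Sfpq (shared) were at -0.01 and -0.03, Sfpq, Adarb1, Malat1, Alas2 and Pola2 (dye-switching) at -0.01, -0.01, -0.02, 0.04 and 0.01. With scaled arrays Sfpq (shared) was at -0.01, Alas2 at 0.01 and Malat1 at -0.01. In robust regression Sfpq was at -0.03 (shared) and -0.01, Tyrobp at -0.01 and Pola2 at 0.10. Without arrays 9 and 10 Sfpq was at -0.03 (shared) and -0.02, Adarb1 at -0.03, Pabpn1 at -0.02, Alas2 at 0.07 and Malat1 at 0.00. With 1 value per run Tyrobp was at -0.01. With arrays left out in turn, shared values were -0.02 to 0.06 for Neat1, -0.02 to 0.05 for Nono and -0.03 to 0.05 for Sfpq. Dye-switching values were then -0.01 to 0.07 for Sfpq, -0.01 to 0.16 for Adarb1, -0.03 to 0.02 for Tyrobp, -0.52 to 0.03 for Pdgfrb (positive without array 13), -0.05 to 0.03 for Alas2, -0.03 to 0.05 for Malat1 and -0.06 to 0.13 for Pola2. The labels give no replicate numbers, so arrays were not paired by number. A fit with each run as a random block changed no call of Neat1, Nono, Sfpq or the genes named by rule from lists and neighbours.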
